A study of Drosophila melanogaster with 24 samples.

Results

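A pair of structural genes was followed across the start of Drosophila melanogaster metamorphosis: alpha-Spec, on the inner face of the plasma membrane, and LanA, in the sheet of matrix outside the cell. They were taken by identifier, FBtr0072789 for alpha-Spec and FBtr0077014 for LanA, which gave 2 of the 16637 FlyBase transcripts in the table. Both genes lie on chromosome arm 3L. Messenger RNA of whole animals had been hybridised to single-colour NimbleGen arrays, 1 array per biological replicate and 24 arrays in all. The animals belonged to 4 strains without any stated transgene or mutation, Oregon-R, Canton-S, Samarkand and Zimbabwe-109. They were collected either as late larvae of the last instar, labelled ≥18BPF and not yet in a puparium, or as white prepupae, labelled PF, which have just formed it. Each of the 8 groups of 1 strain and 1 stage held 3 replicates of 60 to 80 pooled animals, all raised at 25 °C on food with 0.05% bromophenol blue. The sources used here do not give the sex of the animals. The series set genotypes and developmental states against each other, and its title names the onset of metamorphosis.

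Spectrin is a long, flexible rod built from alpha and beta chains. Its tetramers cross-link short actin filaments into a lattice under the membrane, which holds membrane proteins in place through ankyrin and keeps cells in shape. Drosophila has a single alpha chain, which pairs with both the ordinary beta chain and the heavy beta chain, so alpha-Spec is common to all spectrin of the fly. Laminin is a cross-shaped heterotrimer of an alpha, a beta and a gamma chain, and it is the first scaffold on which a basement membrane is laid down. LanA encodes an alpha chain of fly laminin, which cells hold through integrins and dystroglycan. At metamorphosis the steroid hormone ecdysone sets larval tissues on a path to breakdown and drives the imaginal discs, the precursors of adult appendages, to change shape. Both processes remodel the cell cortex and the basement membrane.

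The arrays measure each row as a brightness, so a level of alpha-Spec cannot be set against a level of LanA, and only changes of the same row are compared below. Values are log2 intensities after quantile normalization, which gives all arrays the same distribution. Whole animals were used, so fewer cells that hold a transcript and less transcript per cell cannot be told apart. The median deposited intensity per array ran from 1936 to 3289, and no 2 arrays were identical. To place each array between larva and prepupa, a stage position was computed from 506 to 779 transcripts with at least a 2-fold stage change in the other 3 strains, without the members. It is 0 at the mean larva and 1 at the mean prepupa of those strains. Each strain thus has its own scale, set by the other strains, and positions of different strains share no common zero. Every array lay on the side of its label, from -0.22 to 0.36 in larvae and from 0.72 to 1.07 in prepupae. In Zimbabwe-109 prepupal replicate 2 lay apart at 0.72, with the other prepupae of that strain at 0.99. Larval replicate 4, at 0.23, was the larva of that strain nearest to prepupae, but the others stood at 0.03 and 0.13, so it did not stand apart. For alpha-Spec 1 further array stood apart, Samarkand prepupal replicate 1. The alpha-Spec stage changes of these 2 strains are given with and without these arrays. The Samarkand array was picked by its high alpha-Spec value, which goes against a fall. Fits without it are therefore no independent support for the fall or for its differences between strains.

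The alpha-Spec transcript was lower in prepupae than in late larvae. In the 12 larval arrays its log2 intensity had a lowest value of 11.04, a median of 11.54 and a highest value of 12.25. In the 12 prepupal arrays these values were 10.55, 10.76 and 12.16. Of the prepupal arrays, 9 of 12 were below every larval array and the other 3 lay within the larval range. The share of all transcripts with as many arrays below was not computed. The stricter pattern of all 12 prepupal arrays below all larval ones held for 3.73% of transcripts and not for alpha-Spec. The high extreme of the prepupae was a single Samarkand array, since the next highest of the 12 stood at 11.17. Averaged over strains the change was -0.66 ± 0.12 in log2 intensity (SE from 12 arrays of each stage, limma adjusted p = 6.48e-05), with a 95% interval from -0.91 to -0.41. This is a ratio of 0.631 of prepupal to larval intensity. Of all transcripts 26.4% were called lower in prepupae, so a call alone did not set alpha-Spec apart. The size of the fall ranked 929 from the most negative of 16637 changes, at the 5.58 percentile, against a median change of 0.07 over all transcripts. With normexp background correction the fall was -1.02, and without Canton-S it was -0.46 (limma adjusted p = 0.0109).

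The LanA transcript showed no stage change past the threshold on this scale. Its lowest, median and highest values were 12.97, 13.22 and 13.33 in larvae and 12.98, 13.17 and 13.29 in prepupae. All 12 prepupal arrays lay within the larval range. The share of all transcripts with this pattern was not computed, so it does not set LanA apart. The mean change was -0.01 ± 0.03 (SE, limma adjusted p = 0.645) with a 95% interval from -0.07 to 0.04. Only 773 of the 16637 transcripts had a mean change as small as this or smaller, which is the 4.65 percentile by size. With 71.4% of all transcripts called in 1 direction or the other, LanA was in the smaller share without a call. That outcome depended on the scaling. With each array centred on its median LanA changed by -0.14 (limma adjusted p = 0.0028), and without scaling by -0.15 (adjusted p = 0.145). The 1664 transcripts that were brightest in larvae had a median change of -0.05 with quantile normalization and -0.17 with median centring, and LanA was among bright rows on every array. Its rank on the array, which no monotone scaling alters, had a median at the 96.0 percentile in larvae and the 95.7 percentile in prepupae.

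**Figure D1:**
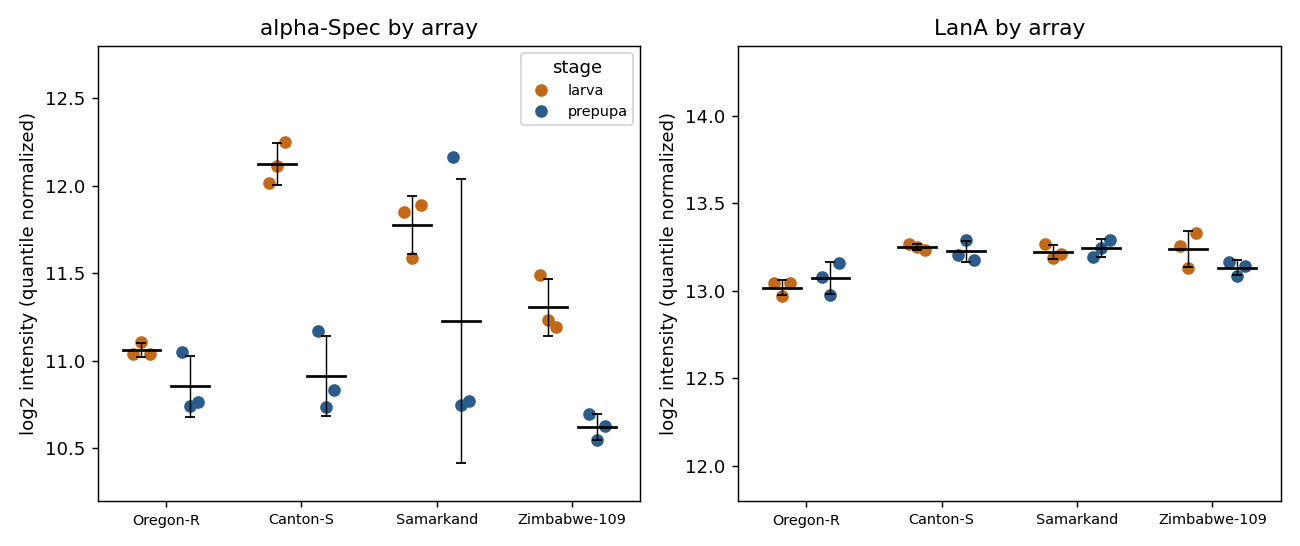
Log2 intensity after quantile normalization (y axis) of alpha-Spec and LanA on each of the 24 arrays, by strain (x axis) and stage (colour). Both y axes span the same range, bars and whiskers are the mean and SD of 3 arrays, and the single high Samarkand prepupa of alpha-Spec stands at 12.16 beside 10.75 and 10.77.

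Set against each other within the same array, the 2 transcripts parted at the transition. They had been chosen as a falling and a steady transcript, with earlier results of these data known. The p-values below are therefore no independent support, and the share of transcript pairs that part as much was not computed. The difference of alpha-Spec minus LanA fell by 0.65 on the log2 scale from larva to prepupa, as the mean of the 4 strains. An exact permutation of the stage labels within strains, with 160000 arrangements, gave a two-sided p = 0.000638, where the smallest possible value was 1.25e-05. A shift that all rows of an array share cancels in this difference, and the fall was 0.58 (exact permutation p = 0.00224) both with median centring and without scaling. Without Canton-S it was 0.45 (exact permutation p = 0.0108). With normexp the difference fell by 1.00 (exact permutation p = 0.00035). Without Samarkand prepupal replicate 1 it fell by 0.78 (exact permutation p = 1.25e-05, the smallest it can give). That array was the only prepupa whose difference was not below the larvae of its strain. Leaving it out led to the smallest p, which is therefore no independent support. By strain the difference fell by 1.19 in Canton-S, 0.58 in Zimbabwe-109, 0.57 in Samarkand and 0.26 in Oregon-R. With 3 arrays against 3, an exact permutation test cannot go below p = 0.1, the value reached in Oregon-R, Canton-S and Zimbabwe-109. In Samarkand it was p = 0.4 by the exact permutation test. There the larval differences were -1.42, -1.60 and -1.32, and the prepupal ones were -1.03, -2.50 and -2.52.

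The stage change of alpha-Spec was then taken within each strain. In Canton-S the larval arrays read 12.01, 12.11 and 12.25 and the prepupal arrays 11.17, 10.74 and 10.83, with no overlap. The change was -1.21 ± 0.24 (SE, limma adjusted p = 0.000229), a ratio of 0.431. It was called lower in a strain where 23.2% of all transcripts were, and in 23% all prepupae lay below all larvae. In Zimbabwe-109 the larvae read 11.49, 11.23 and 11.19 and the prepupae 10.69, 10.55 and 10.63. These too did not overlap, and the change was -0.68 ± 0.24 (limma adjusted p = 0.0367) where 13.3% of transcripts were called lower and 17.1% had no overlap in that direction. The Zimbabwe-109 call depended on single arrays and on settings. Leaving out any 1 of its 6 arrays ended it, with adjusted p between 0.0505 and 0.129. Without both larval replicate 4 and prepupal replicate 2 the change was -0.78 (adjusted p = 0.067). It also ended without Canton-S (adjusted p = 0.0527), without scaling (adjusted p = 0.0847) and with the replicate number as a fixed block (adjusted p = 0.0824). Other settings gave a smaller p or a larger fall. Without Samarkand prepupal replicate 1, whose value entered the spread of the row, the change was -0.69 (adjusted p = 0.000103), and without that array and both Zimbabwe-109 arrays it was -0.78 (adjusted p = 0.000417). With normexp it was -1.13 (adjusted p = 0.0204).

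Oregon-R had the smallest mean difference of the 4 strains. Its larvae read 11.04, 11.11 and 11.04 and its prepupae 11.05, 10.74 and 10.77, so that 1 prepupa lay among the larvae. The change of -0.21 ± 0.24 (SE) did not pass (limma adjusted p = 0.58) where 9% of transcripts were called lower, and its 95% interval reached from -0.71 to 0.29. In Samarkand the larvae read 11.85, 11.59 and 11.89 and the prepupae 12.16, 10.75 and 10.77. A pair of prepupae lay far below all larvae while replicate 1 lay above them. The change over all 6 arrays was -0.55 ± 0.24 (limma adjusted p = 0.0616) where 19.8% were called lower, and without that array it was -1.02 ± 0.13 (adjusted p = 2.65e-06). It passed also with median centring (-0.55, adjusted p = 0.0483), with normexp (-0.86, adjusted p = 0.0489) and with the fixed replicate block (-0.66, adjusted p = 0.0157).

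**Figure D2:**
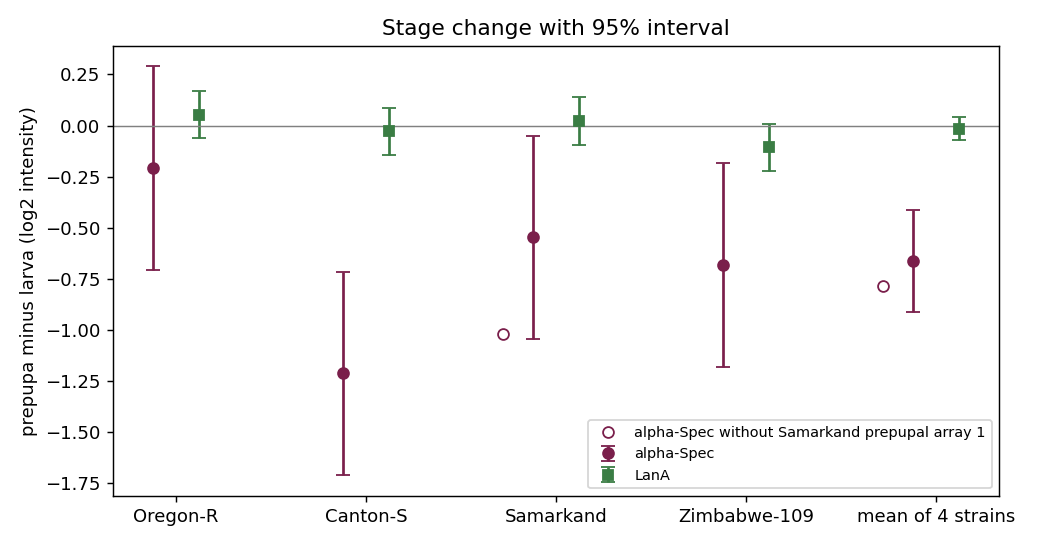
Change from larva to prepupa in log2 intensity (y axis) of alpha-Spec (circles) and LanA (squares) in each strain and as the mean of the 4 strains (x axis), with 95% intervals of the fit. Open circles leave out Samarkand prepupal array 1, which moves alpha-Spec from -0.55 to -1.02 in Samarkand and from -0.66 to -0.78 in the mean.

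The Samarkand array was out of line for alpha-Spec and not for LanA. Its alpha-Spec value exceeded the mean of the other two prepupae of its group by 1.40 on the log2 scale, the third largest excess among the 16637 transcripts of that array. Only 8 transcripts there exceeded their group by at least 1, and the median deviation in either direction was 0.096. LanA deviated by -0.08 on the same array. The stage position of the array was 1.01, between those of the other prepupae of all strains, and its deposited alpha-Spec intensity was 5092 against 1624 and 1860. What gave the high value was not tested.

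That array also set the spread of the alpha-Spec row. The residual SD of alpha-Spec over replicates was 0.319, at the 98.9 percentile of all transcripts, and without the array it was 0.145, at the 74.6 percentile. The residual SD of LanA was 0.061, at the 14.1 percentile. The median over all transcripts was 0.103. Without the array the mean alpha-Spec change was -0.78 ± 0.06 (SE, limma adjusted p = 6.03e-10), a larger fall with a smaller error after the highest prepupal value was taken out.

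**Figure D3:**
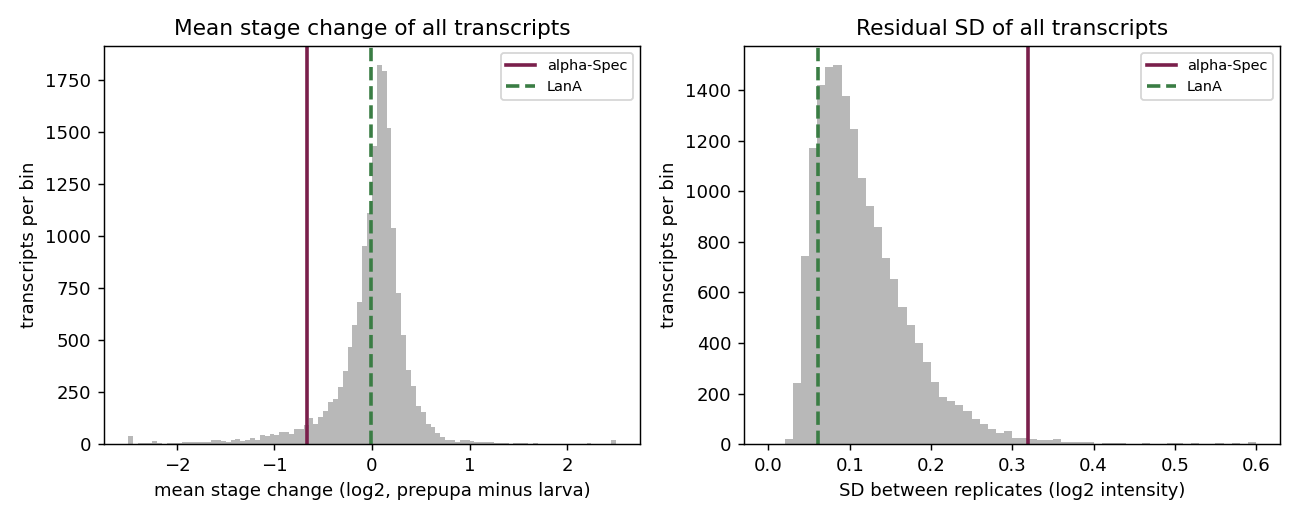
Numbers of transcripts (y axis) by mean stage change and by residual SD between replicates (x axes, log2 intensity), with values beyond the axes gathered in the end bins. Vertical lines mark alpha-Spec, at -0.66 and 0.319, and LanA, at -0.01 and 0.061, so the falling transcript was also the more variable.

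An interaction of strain and stage asked whether the alpha-Spec fall was unequal between strains. The moderated F test over 4 strains did not pass (limma adjusted p = 0.153), in a table where 23.6% of transcripts passed it. With 1 array left out it passed in 1 of 24 fits, that without Samarkand prepupal replicate 1 (adjusted p = 0.00055, 22.8% of transcripts). It also passed with median centring of all 24 arrays (adjusted p = 0.0182). Of the 6 pairs of strains, 1 pair differed past the threshold. The change in Canton-S was more negative than that in Oregon-R by 1.00 ± 0.34 (SE, limma adjusted p = 0.0334, interval of the signed difference from -1.71 to -0.30), where 25.8% of transcripts passed. For the other 5 pairs the shares of transcripts that passed were 14.3% (Zimbabwe-109 against Canton-S), 8.99% (Samarkand against Oregon-R), 6.64% (Samarkand against Canton-S), 4.22% (Zimbabwe-109 against Oregon-R) and 2.9% (Zimbabwe-109 against Samarkand). That call was lost without scaling (adjusted p = 0.0556), with normexp (adjusted p = 0.0504) and in 8 of the 24 fits with 1 array left out, all of them arrays of these 2 strains, with adjusted p up to 0.077. Without the Samarkand array 2 more pairs differed, Samarkand from Oregon-R by -0.81 ± 0.17 (adjusted p = 0.00523) and Zimbabwe-109 from Canton-S by 0.54 ± 0.16 (adjusted p = 0.0283). That array was picked by its high alpha-Spec value. The fits without it are therefore no independent support for unequal falls.

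The LanA stage changes, from the lowest to the highest, were -0.11 (Zimbabwe-109), -0.03 (Canton-S), 0.02 (Samarkand) and 0.05 (Oregon-R), and the SE was 0.06 for all 4. None passed the test (limma adjusted p from 0.158 to 0.754), where 29.6%, 56.7%, 50.8% and 16.7% of all transcripts did in the same order, and the interaction did not pass either (adjusted p = 0.417). The larval and prepupal LanA arrays overlapped in every strain, and 16.3% (Oregon-R) to 25.2% (Samarkand) of transcripts had all prepupae below all larvae. In Zimbabwe-109 the larvae read 13.26, 13.13 and 13.33 and the prepupae 13.17, 13.09 and 13.14. Without larval replicate 3 the change there was -0.16 and passed (limma adjusted p = 0.0345). In Canton-S the change was -0.26 with median centring and passed (adjusted p = 0.00612).

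In larvae the level of alpha-Spec differed among strains. The larval means were 12.13 ± 0.12 in Canton-S, 11.78 ± 0.17 in Samarkand, 11.31 ± 0.16 in Zimbabwe-109 and 11.06 ± 0.04 in Oregon-R (SD, n = 3 each). No array of one of these groups lay within the range of another, and the share of all transcripts with such separate ranges was not computed. The 4 larval groups differed (limma adjusted p = 0.0021), as did 77.1% of all transcripts. The range of 1.06 among strain means was at the 94.8 percentile. The F of alpha-Spec was at the 44.5 percentile, so the call did not set alpha-Spec apart. Per the labels' protocols each strain had its own RNA extractions, and the part of extraction in the strain differences was not tested. Among pairs, Canton-S exceeded Oregon-R by 1.06 ± 0.24 (limma adjusted p = 0.000654), and Zimbabwe-109 was below Canton-S by a difference of -0.82 ± 0.24 (adjusted p = 0.00573). Samarkand exceeded Oregon-R by 0.71 ± 0.24 (adjusted p = 0.025), a call lost when any of 5 arrays was left out, the 3 Oregon-R larvae and Samarkand larval replicates 2 and 4. Without Samarkand prepupal replicate 1 it was 0.72 (adjusted p = 6.48e-05). The other 3 pairs did not pass. These 3 called pairs were called in 64.9%, 62.9% and 35.1% of all transcripts, and the others in 48.1% (Samarkand against Canton-S), 35.3% (Zimbabwe-109 against Samarkand) and 32% (Zimbabwe-109 against Oregon-R). Without Canton-S the remaining 3 strains did not differ past the threshold in larvae (adjusted p = 0.0722).

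In prepupae the alpha-Spec means were 10.62 ± 0.07 in Zimbabwe-109, 10.85 ± 0.17 in Oregon-R, 10.91 ± 0.23 in Canton-S and 11.23 ± 0.81 in Samarkand (SD, n = 3 each). The strains did not differ past the threshold (limma adjusted p = 0.156), while 67.9% of all transcripts did. Leaving out Samarkand prepupal replicate 2 or 3 brought the test past the threshold (adjusted p = 0.0345 and 0.0412), the only 2 of 24 such fits to pass. Both fits kept the high Samarkand replicate 1, which then weighed more in the mean of its group. In the order of all 8 groups, Canton-S larvae, Samarkand larvae and the next group below were each separated by a step larger than the SD of either neighbour, as were the lowest 2 groups. The 4 steps between Oregon-R prepupae, Canton-S prepupae, Oregon-R larvae, Samarkand prepupae and Zimbabwe-109 larvae were smaller than the larger SD.

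The stage position of the larval arrays was set beside their alpha-Spec level. Between strains these positions are on different scales, each set by the other strains. Oregon-R larvae, which had the lowest alpha-Spec, had the highest larval positions, 0.29 to 0.36. Zimbabwe-109 larvae lay at 0.03 to 0.23, Samarkand larvae at -0.15 to -0.07 and Canton-S larvae, with the highest alpha-Spec, at -0.22 to -0.19. Inside Canton-S, Samarkand and Zimbabwe-109 the array nearer to the prepupae always had the lower alpha-Spec value. In Zimbabwe-109, for example, positions of 0.03, 0.13 and 0.23 went with levels of 11.49, 11.23 and 11.19. In Oregon-R this order did not hold, since the array at 0.36 had the highest level, 11.11. The same order inside those 3 strains was found in 163 of all transcripts, or 0.98%, and in 64 of the 929 transcripts that fell as much as alpha-Spec or more, or 6.89%. The order of the 4 strain means was found in 10.9% of all transcripts and in 46.8% of those 929. These shares were taken after the pattern had been seen, and the part of the stage position in the strain differences was not tested. LanA showed neither order.

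**Figure D4:**
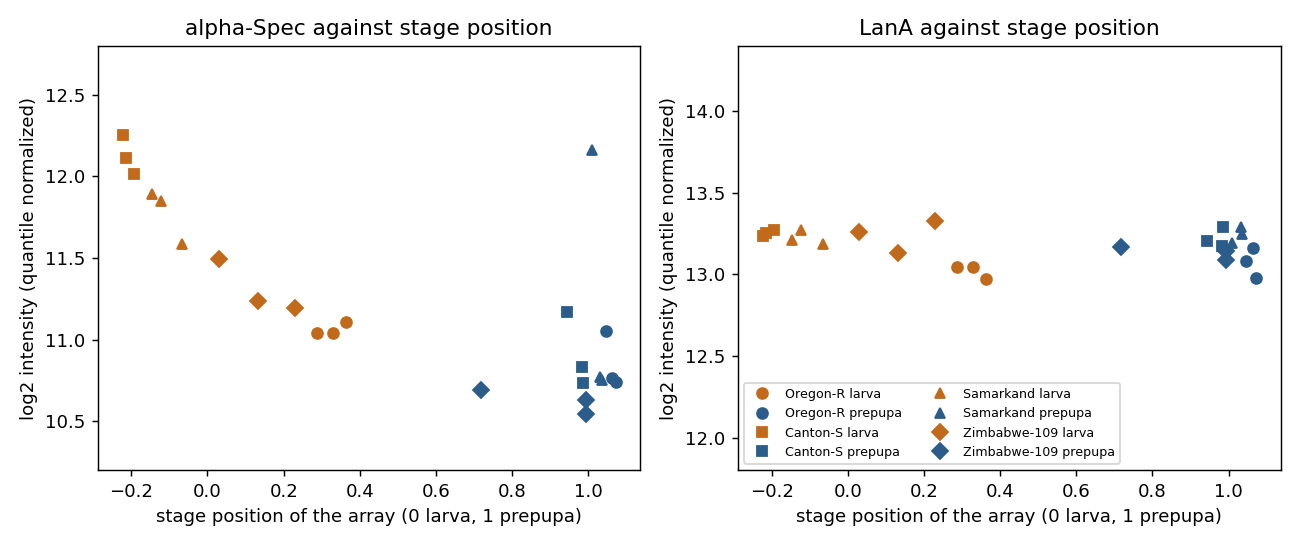
Log2 intensity (y axis) of alpha-Spec and LanA on each array against the stage position of that array (x axis, 0 at the mean larva and 1 at the mean prepupa of the other strains), with strains by shape and stages by colour. Larval alpha-Spec read 12.25 at -0.22 in Canton-S and 11.11 at 0.36 in Oregon-R, and LanA stayed between 12.97 and 13.33. Positions of different strains share no common zero, so no trend across strains can be read from the x axis.

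LanA also differed among strains in larvae, and with quantile normalization its means spanned a smaller range than those of alpha-Spec. Its larval means were 13.02 ± 0.04 in Oregon-R, 13.22 ± 0.04 in Samarkand, 13.24 ± 0.10 in Zimbabwe-109 and 13.25 ± 0.02 in Canton-S (SD, n = 3 each). The groups differed (limma adjusted p = 0.00207) although the range of 0.23 was at the 19.5 percentile of all transcripts. Of all transcripts 77.1% passed this test, and the F of LanA was at the 44.6 percentile, so the call did not set LanA apart. Oregon-R had the lowest mean. Canton-S, Samarkand and Zimbabwe-109 larvae exceeded it by 0.23, 0.20 and 0.22, each ± 0.06 (SE, limma adjusted p = 0.00104, 0.00688 and 0.00436), pairs called in 64.9%, 35.1% and 32% of all transcripts, and the other 3 larval pairs did not pass. Those 3 Oregon-R arrays read 13.04, 12.97 and 13.04, below every larval array of the other strains. The share of all transcripts for which this held was not computed.

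In prepupae LanA stood at 13.07 ± 0.09 in Oregon-R, 13.13 ± 0.04 in Zimbabwe-109, 13.23 ± 0.06 in Canton-S and 13.24 ± 0.05 in Samarkand (SD, n = 3 each). The strains differed (limma adjusted p = 0.0283), and of the 6 pairs Canton-S and Samarkand exceeded Oregon-R, by 0.15 and 0.17 (adjusted p = 0.0286 and 0.035), pairs called in 46.6% and 17.7% of all transcripts. The other 4 pairs were called in 26.8% (Zimbabwe-109 against Oregon-R), 51.7% (Samarkand against Canton-S), 55.7% (Zimbabwe-109 against Canton-S) and 25.4% (Zimbabwe-109 against Samarkand). The Canton-S pair was lost without Oregon-R prepupal replicate 3 or Canton-S prepupal replicate 2 (adjusted p = 0.153 and 0.112). The Samarkand pair was lost without prepupal replicate 2 or 3 of Oregon-R (adjusted p = 0.0686 and 0.156) or of Samarkand (adjusted p = 0.0782 and 0.144). In a fit of prepupae alone neither pair passed (adjusted p = 0.0738 and 0.111). The strain test did not pass without Oregon-R prepupal replicate 2 (adjusted p = 0.0508) or 3 (adjusted p = 0.0995) or Samarkand prepupal replicate 3 (adjusted p = 0.0688), nor without Canton-S (adjusted p = 0.0665). Among the 8 group means in order, only the step from Zimbabwe-109 prepupae to Samarkand larvae, 0.09, was larger than the SD of both neighbours.

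The size of the LanA strain differences depended on the scaling, most of all for Canton-S. Its excess over Oregon-R in larvae, 0.23 with quantile normalization, was 0.91 with median centring (limma adjusted p = 3.91e-09) and 0.66 without scaling (adjusted p = 0.00119). In prepupae the 0.15 became 0.62 (adjusted p = 1.81e-06) and 0.50 (adjusted p = 0.0302). With median centring Samarkand and Zimbabwe-109 larvae exceeded Oregon-R by 0.31 and 0.24 (adjusted p = 0.0042 and 0.0213), so that Canton-S was then the strain farthest from Oregon-R. The larval strain test had an adjusted p of 2.07e-08 with median centring, where the alpha-Spec excess of Canton-S over Oregon-R was 1.27. The deposited log2 values also spread more widely on Canton-S arrays, with a mean interquartile range of 1.59 in larvae and 1.52 in prepupae against 1.22 to 1.25 in the other groups. The part of that spread in the LanA differences was not tested. With median centring Samarkand prepupae exceeded Oregon-R by 0.13, which did not pass (adjusted p = 0.347). Without scaling the excess over Oregon-R passed neither in Samarkand larvae (0.47, adjusted p = 0.0628) nor in Zimbabwe-109 larvae (0.31, adjusted p = 0.366).

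The ranks of both rows within each array varied as follows. The percentile of alpha-Spec among the transcripts of the same array ran from 37.7 in an Oregon-R larva to 82.0 in a Canton-S larva. In prepupae it ran from 20.8 to 42.9, and stood at 79.7 on Samarkand array 1. LanA kept between 94.1 and 96.6 in larvae and between 94.1 and 96.4 in prepupae. These ranks compare brightness of probes and are not abundances.

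The transcripts most like each member were found by the root mean square distance between centred profiles of the 8 group means. FBtr0078828 was nearest to alpha-Spec, at 0.127, followed by FBtr0087670 at 0.136. They changed by -0.72 and -0.65 from larva to prepupa on the mean, and neither could be given a gene name. Among the 16 rows with a gene name, Fatp1, a fatty acid transport protein, was nearest at 0.272 and ranked 662 of all rows. It was followed by kis, a chromatin remodeller, at 0.364, which ranked 2260 and changed by only -0.21 on the mean. For comparison, alpha-Spec lay 0.467 from a flat line at its own mean. For LanA the nearest rows were FBtr0076012 at 0.0376 and FBtr0070322 at 0.0384. The nearest named ones were Wdr24, of a nutrient-signalling complex, at 0.063 (rank 66) and HDAC3, a histone deacetylase, at 0.111 (rank 1331). The flat line lay 0.0841 from LanA, closer than HDAC3.

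The partners of these genes could not be followed. A list of 12 membrane skeleton symbols, which included the beta spectrins, ankyrins and adducin, had 1 named row, alpha-Spec itself. A list of 13 basement membrane symbols, with the other laminin chains, type IV collagen, perlecan and nidogen, had 1, LanA. None of 8 receptor genes, integrins and dystroglycan among them, had one, and none of 30 markers of larval salivary gland, fat body, muscle, hemocytes, midgut and the prepupal ecdysone response. The tissue makeup of the animals and the labelled stages were therefore not checked against markers. The gene table also limits what the alpha-Spec row can be taken for. In it alpha-Spec overlaps dlt, a protein-coding gene with which it shares 1 boundary, and the antisense RNA CR45834, and it has 4 RefSeq transcripts, whereas LanA has 1 and overlaps no gene. Which of these the row's probes detect is not stated in those sources.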

How the data were processed

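The authors deposited 1 table of array intensity values on a linear scale, whole numbers for 16637 FlyBase transcripts and 24 samples. RMA, which corrects, normalizes and summarizes probe values, is named without a version in the submitters' processing notes. The medians of the arrays differed, so the deposited intensities shared no common scale, and no genome build was named. The log2 of each intensity was quantile normalized across the 24 arrays (limma 3.58.1, R 4.3.3), and no transcript was filtered out.

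All contrasts and F tests came from a linear model in limma that gave every group its own mean (8 groups, 16 residual degrees of freedom), with empirical Bayes moderation. They were two-sided, with Benjamini-Hochberg adjustment over all 16637 transcripts and a threshold of 0.05. The SE is that of the fit. The fits were tested on simulated data. Per the labels' protocols the replicates were biological, each ground from its own pool of animals, and whether the pools came from separate cultures is not stated. Precision is limited by there being 3 arrays in a group.

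Sample titles end in a digit, which served as replicate number, and the labels gave the groups. Of 9 pairs of arrays that share a strain and a number, 5 deviated together with a correlation above 0.1, and the lowest correlation was -0.63, so the numbers were not taken as pairs.

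Gene names came from a RefSeq gene table of assembly Release 6, which held 44 of the identifiers, 16 of them with exactly 1 gene. Besides the members, the 2 rows nearest to each by profile and the 2 nearest named rows were given by rule. The members, lists and alternatives were chosen with earlier results of these data known. The alternatives were median centring, no scaling, normexp with an offset of 50, leaving out dim transcripts, another spread model, 2 kinds of replicate block, fits of 1 strain or stage alone, and leaving out Canton-S or single arrays. No sequences or coordinates are given, as none were used here.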

Additional observations from a re-analysis of the deposited data

Results flagged for a closer look

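The stage change of alpha-Spec differed between Canton-S and Oregon-R by -1.004 on the log2 scale in a test of that difference (limma adjusted p = 0.0334), with changes of -1.21 and -0.21 and lower prepupal than larval means in both strains. The adjusted p was 0.0556 without scaling, 0.0504 with normexp, 0.00296 with median centring and 0.00012 without Samarkand prepupal replicate 1. The larval arrays of these strains also lay at opposite ends of the larval stage positions, from -0.22 to -0.19 in Canton-S and from 0.29 to 0.36 in Oregon-R. Each strain was placed on a scale set by the other strains, so these positions share no common zero. The part of the stage position in the difference was not tested. No other pair of strains differed past the threshold over all 24 arrays, and LanA gave no such pair.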

How the results depend on the processing

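The mean alpha-Spec fall ran from -0.78 to -0.60 with 1 array left out, and without Canton-S it was -0.46 (limma adjusted p = 0.0109). It passed under each alternative in which the row was kept. So did its fall in Canton-S (-1.33 to -1.12 with 1 array left out), its strain differences in larvae except without Canton-S (adjusted p = 0.0722), and the fall of alpha-Spec minus LanA (-0.78 to -0.59, -1.004 with normexp, -0.45 without Canton-S). The filter on the dimmest 50% removed alpha-Spec, so that setting gave it no value. The alpha-Spec fall in Zimbabwe-109 did not pass without scaling (-0.76), with the fixed replicate block (-0.52), without Canton-S (-0.65) or without the 2 Zimbabwe-109 arrays (-0.78), and ran from -0.74 to -0.59 with 1 array left out. It passed with a larger fall with normexp (-1.13), and without Samarkand prepupal replicate 1 its adjusted p was 0.000103. In Samarkand it passed with median centring (-0.55), normexp (-0.86) and the fixed replicate block (-0.66), and ran from -1.02 to -0.31 with 1 array left out. Without the 2 Zimbabwe-109 arrays and Samarkand prepupal array 1, an alternative chosen after the data were seen, it was -1.03 and the interaction passed (adjusted p = 0.00102). The interaction adjusted p was 0.0182 with median centring and from 0.00055 to 0.294 with 1 array left out. The prepupal strain test of alpha-Spec ran from 0.0345 to 0.27. For LanA, the mean change was -0.14 with median centring and the Canton-S change -0.26, both past the threshold. The Samarkand change turned sign with median centring (-0.16) and without scaling (-0.23), and ran from -0.0025 to 0.048 with 1 array left out. The Zimbabwe-109 change ran from -0.16 to -0.062 and passed only without larval replicate 3. The LanA excess of Canton-S over Oregon-R went from 0.23 to 0.91 in larvae and from 0.15 to 0.62 in prepupae with median centring, and to 0.66 and 0.50 without scaling. The prepupal strain test of LanA had an adjusted p of 0.0665 without Canton-S and 0.0902 in a fit of each stage alone, and from 0.0132 to 0.0995 with 1 array left out. The random replicate block, with a correlation of -0.06, changed none of these calls. The labels do not say whether equal replicate numbers pair the samples. Causes were not tested. Of 592 alternative values for the main comparisons 560 kept their side of the threshold and, where they have one, their sign. Many of these leave out an array of another strain, which hardly moves the value, or change only the test. The count therefore does not measure how firm a single call was.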
